A study of Mus musculus with 9 samples.

Results

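Dendritic cell subset genes are described here, 10 genes that mark conventional, mature and plasmacytoid dendritic cells: Flt3, Zbtb46, Xcr1, Clec9a, Itgae, Cd209a, Mgl2, Ccr7, Fscn1 and Siglech. They were chosen by gene symbol from a table of 18875 genes. All 10 were in the table and passed the filter on low values (1 TPM or more in 3 or more of the libraries), which left 13991 genes to test. Messenger RNA from the whole lung of BALB/c mice of wild-type genotype was sequenced in 9 libraries, 3 a group. In the long-term group, PM2.5, fine airborne particulate matter, was instilled into the nose in 6 doses of 10 mg/kg, 3 days apart. In the short-term group 1 dose of that size was given. The PBS group is labelled as a long-term exposure to the vehicle, so no vehicle control matches the short-term group in duration. For the age and sex of the mice and the time from the last dose to collection, nothing is given in the sources used here. Whether replicate samples are separate mice is not stated in the labels, and the p-values then cover the spread between samples, which may be technical. In a whole lung, fewer cells of a type and less RNA per cell cannot be told apart.

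Dendritic cells take up antigen in the lung, carry it to the draining lymph node and show it to T cells. Conventional dendritic cells grow under the cytokine Flt3l and fall into the cDC1 subset, which takes up dead cells and presents to CD8 T cells, and the cDC2 subset, which favours helper T cell responses. On maturation both gain the chemokine receptor CCR7 and leave the tissue, while plasmacytoid dendritic cells are a separate lineage known for type I interferon.

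Mgl2, a lectin gene of cDC2 cells and of some macrophages, was higher in the lungs of both exposed groups than in those given PBS. Flt3, the growth factor receptor, was higher after long-term exposure, a call that did not hold when some libraries were left out. Its short-term difference from PBS did not pass in the TPM as deposited, but passed in 5 of 18 alternative runs. Fscn1, which encodes the actin-bundling protein of mature dendritic cells, was higher in short-term than in both long-term and PBS lungs, at 2.13 times the PBS mean. Zbtb46, a transcription factor of conventional dendritic cells, was lower after short-term exposure. Siglech, the plasmacytoid gene, and Ccr7 did not pass the test in any of the 3 comparisons of TPM as deposited.

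Sequences upstream of 4 of these genes are shown because the levels of Fscn1 and of the cDC1 pair Xcr1 and Clec9a differed in opposite directions between the exposed groups in the TPM as deposited, and because Flt3 encodes the receptor on which conventional dendritic cells depend. Each is the 250 bases before the annotated start on the strand of the gene, 5′ to 3′, from RefSeq on GRCm38.p6, a C57BL/6J reference. Capitals mark GCGTG or its reverse complement CACGC, the core of the xenobiotic response element. Positions are chr5:142960105-142960354 (plus strand) for Fscn1, chr5:147400490-147400739 (minus strand) for Flt3, chr9:123862030-123862279 (minus strand) for Xcr1 and chr6:129408612-129408861 (plus strand) for Clec9a.
Fscn1: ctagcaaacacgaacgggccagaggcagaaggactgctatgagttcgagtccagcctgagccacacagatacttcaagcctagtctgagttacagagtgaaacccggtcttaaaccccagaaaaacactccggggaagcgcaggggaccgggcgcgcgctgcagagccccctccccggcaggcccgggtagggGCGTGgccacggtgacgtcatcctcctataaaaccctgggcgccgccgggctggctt
Flt3: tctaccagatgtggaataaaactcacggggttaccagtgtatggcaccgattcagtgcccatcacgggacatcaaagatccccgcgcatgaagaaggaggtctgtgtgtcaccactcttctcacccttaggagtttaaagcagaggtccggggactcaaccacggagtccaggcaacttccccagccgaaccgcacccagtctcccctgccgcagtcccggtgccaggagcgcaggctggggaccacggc
Xcr1: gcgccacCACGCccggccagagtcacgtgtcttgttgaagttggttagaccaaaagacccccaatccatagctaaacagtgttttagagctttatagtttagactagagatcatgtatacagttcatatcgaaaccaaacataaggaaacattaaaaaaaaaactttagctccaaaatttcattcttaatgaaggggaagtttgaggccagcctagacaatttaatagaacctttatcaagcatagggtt
Clec9a: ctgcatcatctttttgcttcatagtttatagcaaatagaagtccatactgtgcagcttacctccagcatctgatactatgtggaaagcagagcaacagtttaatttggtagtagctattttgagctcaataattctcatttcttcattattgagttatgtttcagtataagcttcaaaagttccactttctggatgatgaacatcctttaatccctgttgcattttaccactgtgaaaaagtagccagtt
The G and C content of these windows was 62.4% for Fscn1, 59.2% for Flt3, 38.8% for Xcr1 and 35.6% for Clec9a. A window was found for 8 of the 10 genes, and Ccr7 and Itgae had no match in the table. Both strands of the windows were searched for 3 motifs, none of which is part of another. A first search also held longer motifs of the interferon-stimulated response and of NF-kB, which matched no window of these genes and were dropped. GCGTG was in the windows of Fscn1, 57 bases before the start on the plus strand, and of Xcr1, and in 42.3% of the 14171 windows of tested genes. GAGGAA, the core bound by PU.1 and other ETS factors, was in the window of Mgl2 and in 22.7% of all windows. TGACNNNGC, the antioxidant response element, was in that of Siglech and in 11.7% of all windows. A match is a description of letters, and no match says only that these letters are not in this window.

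Values are given in TPM, a share of the library corrected for transcript length. Fold changes are differences of group means of log2(TPM + 1), which understate the change of low genes, with the standard error and a 95% interval from limma. A gene was called at a Benjamini-Hochberg adjusted p under 0.05 over all tested genes. TPM keeps no read number, so the depth behind each value is unknown. Lung epithelial genes such as Sftpc, Scgb1a1 and Ager were present in all libraries, and a list of 9 such genes summed to 202013 to 228740 TPM in the long-term, 145730 to 168698 TPM in the short-term and 195947 to 232565 TPM in the PBS libraries. In this list 0 genes rose and 1 fell in long-term against PBS lungs, and 1 rose and 4 fell in short-term against PBS lungs.

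The short-term libraries stood apart in transcript length. The median difference from PBS of genes with long transcripts minus that of genes with short transcripts was -1.23, -0.61 and -0.78 log2 units in the 3 short-term libraries, against -0.15 to -0.11 in the long-term and -0.03 to 0.02 in the PBS libraries. Short-term replicate 1 was also the lowest in genes at 1 TPM or more, with 12560, against 13175 to 13930 in the other 8 libraries. The median log2 difference of all tested genes was 0.03 in long-term against PBS, -0.34 in short-term against PBS and 0.41 in long-term against short-term lungs. Median-ratio scaling moved the last pair to -0.05 and 0.08, and removal of each library's trend with length and GC content to -0.01 and -0.03. Values after this removal are called corrected below, and for the 10 genes they are given beside those as deposited wherever the call changes.

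Across the 10 genes, 2 rose, 0 fell and 8 did not pass in long-term against PBS lungs, where 11.2% of all tested genes were called, 9.51% upwards and 1.72% downwards. The median of the 10 log2 fold changes was 0.39, and 8 of 10 were above 0, beside 54.3% of all tested genes. In short-term against PBS lungs, 2 rose, 2 fell and 6 did not pass, beside 51.9% of all tested genes called, 11.7% upwards and 40.3% downwards. The median of the 10 was -0.14. Between long-term and short-term lungs, 5 were higher, 1 was lower and 4 did not pass, beside 50.5% of all tested genes called, 43.4% upwards and 7.08% downwards, and the median was 0.50. The counts of 4 and 6 of 10 in the comparisons with short-term lungs are near the background. With the correction 3 rose and 1 fell in long-term against PBS lungs, beside 24.3% of genes called, 12.6% upwards and 11.7% downwards. In short-term against PBS lungs 3 rose and 2 fell with the correction, beside 53.5%, 25.7% upwards and 27.8% downwards. Between long-term and short-term lungs 0 were higher and 1 was lower with the correction, beside 46.3%, 22.2% upwards and 24.1% downwards. The medians of the 10 with the correction were 0.31, 0.30 and -0.08, in the same order. Both comparisons against PBS share the PBS libraries.

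**Figure D1:**
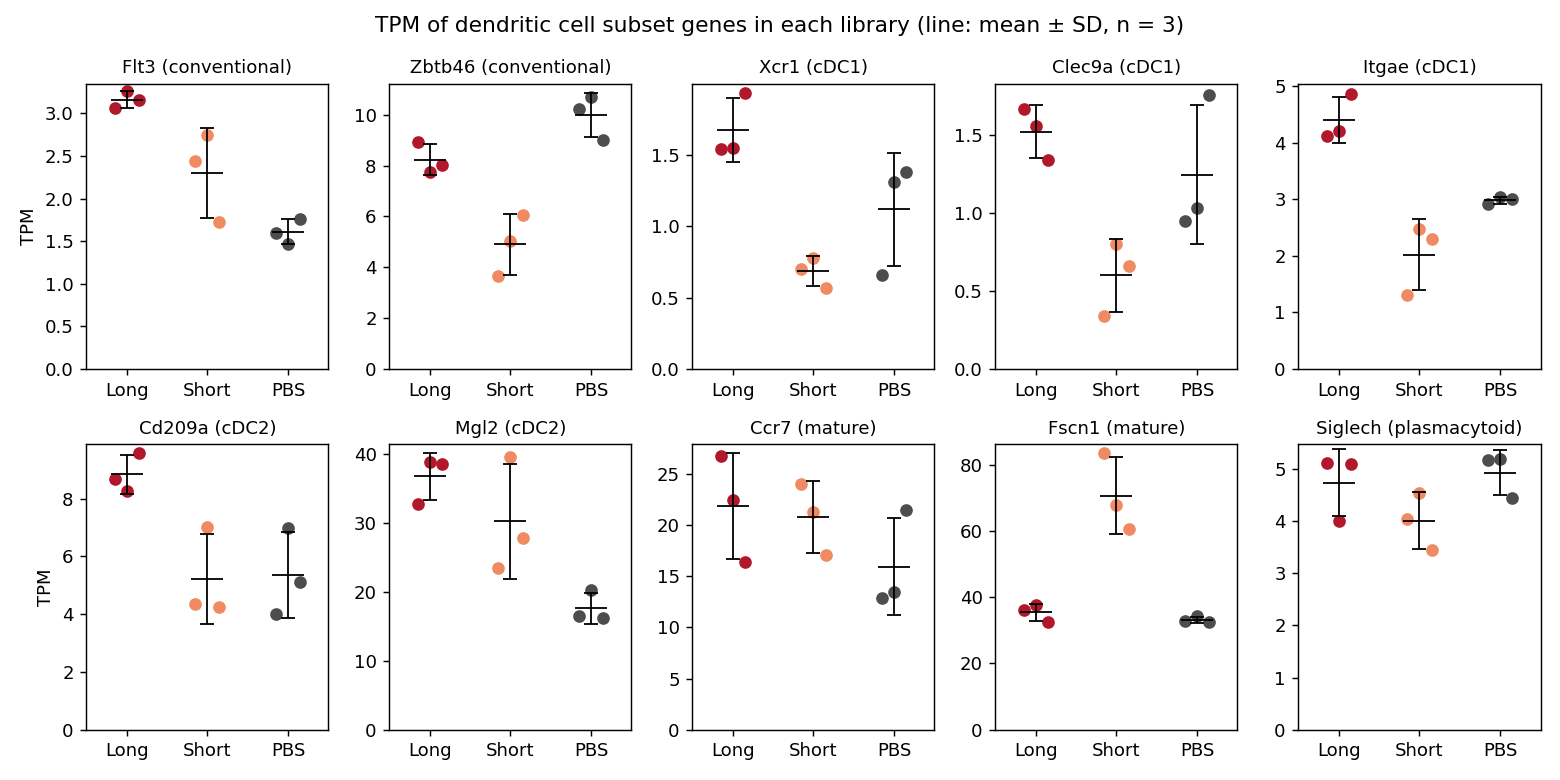
TPM of the 10 genes in each library (points), with the mean and SD of 3 libraries (line and bar), for long-term PM2.5, short-term PM2.5 and PBS. The 3 short-term points of Fscn1 lie between 60.66 and 83.61 TPM, above all other libraries, and all 6 points of exposed lungs for Mgl2 lie above those of PBS.

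The levels of the 10 genes in PBS lungs spanned from 33.2 ± 0.903 TPM for Fscn1 down to 1.12 ± 0.397 TPM for Xcr1 (SD, n = 3). Fscn1 stood at percentile 71.3 of tested genes by level, and Xcr1 at percentile 3.92. Below Fscn1 came Mgl2 (17.6 ± 2.28 TPM), Ccr7 (15.95 ± 4.78 TPM) and Zbtb46 (9.99 ± 0.876 TPM), of which Mgl2 and Ccr7 overlapped. Cd209a (5.36 ± 1.5 TPM) and Siglech (4.94 ± 0.430 TPM) overlapped as well. Itgae (2.98 ± 0.0666 TPM) stood apart from both neighbours. Flt3 (1.61 ± 0.145 TPM), Clec9a (1.25 ± 0.446 TPM) and Xcr1 overlapped in turn. The median coefficient of variation of the 10 genes was 9.29% in long-term, 23.6% in short-term and 10.98% in PBS libraries, and the short-term group had the largest for 8 of the 10 genes.

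Flt3 lies on chr5:147330741-147400489 (gene 14255) and encodes the receptor tyrosine kinase that drives dendritic cell development. It was at 3.06, 3.26 and 3.16 TPM in long-term, 2.44, 2.75 and 1.72 TPM in short-term and 1.60, 1.47 and 1.76 TPM in PBS lungs. All long-term libraries were above all others, and short-term replicate 3 lay within the PBS range. The long-term level was 1.96 times that of PBS (log2 fold change 0.67 ± 0.15, interval 0.34 to 1.00, adjusted p = 0.0147). This call was lost without long-term replicate 1, 2 or 3 (adjusted p = 0.0581, 0.0698 and 0.0535), without PBS replicate 1 or 2 (0.0654 and 0.0646) and under quantile normalization (0.110). The short-term difference was 0.33 ± 0.15 (adjusted p = 0.0852), and passed at 0.90 after the correction (adjusted p = 0.00175) and without short-term replicate 3 (adjusted p = 0.0327). It also passed under median-ratio scaling (0.57, adjusted p = 0.0111) and quantile normalization (0.71, adjusted p = 0.00806). Its transcript, of 3657 bases, is at percentile 79.1 of length, where tested genes had a median short-term difference of -0.53. Long-term and short-term lungs differed by 0.35 (adjusted p = 0.0736), and by -0.28 after the correction (adjusted p = 0.205).

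Zbtb46 (gene 72147, chr2:181371009-181493262) encodes a zinc finger factor of conventional dendritic cells that is also expressed in endothelium. It was at 8.92, 7.74 and 8.03 TPM in long-term, 3.66, 5.02 and 6.04 TPM in short-term and 10.24, 10.72 and 9.02 TPM in PBS lungs. The 3 groups did not overlap, with short-term libraries lowest and PBS highest. The short-term difference from PBS was -0.91 ± 0.17 (interval -1.30 to -0.53, adjusted p = 0.00246), and passed under all 19 alternatives, with values between -1.05 and -0.43. The long-term difference was -0.25 ± 0.17 (adjusted p = 0.501), and passed after the correction only (-0.37, adjusted p = 0.0464). Long-term exceeded short-term lungs by 0.66 (adjusted p = 0.0118), which was not called after the correction (0.29, adjusted p = 0.0683) or under quantile normalization (0.05, adjusted p = 0.777). Summed endothelial markers, 9 genes, were 2832 to 3154 TPM in long-term, 3149 to 3635 TPM in short-term and 4131 to 4471 TPM in PBS libraries, and 0 rose with 5 falling in long-term and 6 in short-term lungs against PBS. None of the 9 was at 0 in all libraries, and their part in the level of Zbtb46 was not tested.

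Among the genes of the cDC1 subset, Xcr1 (gene 23832, chr9:123852315-123862029) encodes the receptor for the lymphocyte chemokine XCL1. It was at 1.54, 1.55 and 1.93 TPM in long-term, 0.70, 0.78 and 0.57 TPM in short-term and 0.66, 1.31 and 1.38 TPM in PBS lungs. Long-term libraries were above all others, and the short-term and PBS ranges overlapped through PBS replicate 1. Neither difference from PBS passed, at 0.35 for long-term (adjusted p = 0.221) and -0.31 for short-term exposure (adjusted p = 0.115). The short-term difference passed without PBS replicate 1 (adjusted p = 0.0308) and was 0.45 after the correction (adjusted p = 0.160). Long-term exceeded short-term lungs by 0.67 (adjusted p = 0.00756), a difference that turned to -0.13 after the correction (adjusted p = 0.691). Its transcript of 4453 bases is the longest of the 10.

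Clec9a (gene 232414, chr6:129408862-129424764) encodes a receptor for actin of dead cells. It was at 1.67, 1.56 and 1.34 TPM in long-term, 0.34, 0.80 and 0.66 TPM in short-term and 0.95, 1.03 and 1.76 TPM in PBS lungs. All short-term libraries were below all others, while the long-term and PBS ranges overlapped. The short-term difference from PBS was -0.48 ± 0.17 (interval -0.86 to -0.11, adjusted p = 0.0341), and -0.40 after the correction (adjusted p = 0.0453). It passed in 9 of 17 alternatives and was lost without short-term replicate 1 (adjusted p = 0.0991) or 3 (0.0608), PBS replicate 3 (0.131) or long-term replicate 2 (0.0521), and under median-ratio scaling (0.0724), quantile normalization (0.208) and the replicate block (0.0518). The long-term difference was 0.18 (interval -0.19 to 0.56, adjusted p = 0.653). Its transcript of 867 bases is short, at percentile 14.3, where the median short-term difference of tested genes was 0.04. Long-term exceeded short-term lungs by 0.67 (adjusted p = 0.0099), against 0.38 after the correction (adjusted p = 0.0628).

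Itgae (gene 16407, chr11:73090505-73147449) encodes the integrin CD103, which binds E-cadherin on epithelium and is carried by cDC1 cells and by resident T cells. It was at 4.12, 4.21 and 4.87 TPM in long-term, 1.30, 2.47 and 2.30 TPM in short-term and 2.91, 3.04 and 3.0 TPM in PBS lungs. The groups did not overlap, with long-term highest and short-term lowest. Against PBS, Itgae differed by 0.44 in long-term lungs (interval 0.05 to 0.82, adjusted p = 0.158) and by -0.42 in short-term lungs (interval -0.80 to -0.04, adjusted p = 0.0616), and neither passed. The long-term difference passed after the correction (0.39, adjusted p = 0.0215) and without short-term replicate 1 (adjusted p = 0.0164). The short-term difference passed without short-term replicate 2 (adjusted p = 0.0210), and turned to 0.15 after the correction (adjusted p = 0.237). Long-term exceeded short-term lungs by 0.86 (adjusted p = 0.00379), against 0.24 after the correction (adjusted p = 0.0859). T cell markers summed to 151 to 210 TPM in long-term, 135 to 200 TPM in short-term and 151 to 180 TPM in PBS libraries. Of 10 such genes 0 passed in long-term against PBS lungs, Cd3d rose in short-term against PBS lungs, and their part in the level of Itgae was not tested. Xcr1 and Clec9a together were at 3.21, 3.11 and 3.27 TPM in long-term, 1.04, 1.58 and 1.23 TPM in short-term and 1.61, 2.34 and 3.14 TPM in PBS lungs. Here the 3 against 3 design gives at best an exact permutation p of 0.1, two-sided. That value was reached between long-term and short-term lungs and between short-term and PBS lungs, where groups did not overlap. The nearest short-term and PBS libraries, at 1.58 and 1.61 TPM, lay close together. The sum is of TPM as deposited and was not corrected. After the correction the short-term differences from PBS were 0.45 for Xcr1 and -0.40 for Clec9a.

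Of the cDC2 genes, Mgl2 (gene 216864, chr11:70130125-70137542) encodes the lectin CD301b, which binds galactose-type sugars. It was at 32.78, 38.82 and 38.52 TPM in long-term, 23.38, 39.54 and 27.71 TPM in short-term and 16.46, 20.22 and 16.12 TPM in PBS lungs. Neither exposed group overlapped PBS, and the exposed groups overlapped through short-term replicate 2. The mean was 36.7 ± 3.40 TPM in long-term, 30.2 ± 8.37 TPM in short-term and 17.6 ± 2.28 TPM in PBS lungs (SD, n = 3). The long-term mean was 2.09 times that of PBS (log2 fold change 1.02 ± 0.19, interval 0.61 to 1.44, adjusted p = 0.00558), and 19 of 19 alternatives passed, with values from 0.86 to 1.12. The short-term mean was 1.72 times that of PBS (log2 fold change 0.72 ± 0.19, interval 0.31 to 1.14, adjusted p = 0.0100), and 19 of 19 alternatives passed, from 0.52 to 1.06. Long-term and short-term lungs differed by 0.30 (adjusted p = 0.193), which passed in 1 of 19 alternatives, without short-term replicate 2 (adjusted p = 0.0126).

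Summed markers of macrophages, 12 genes, were 873 to 1251 TPM in long-term, 686 to 754 TPM in short-term and 392 to 427 TPM in PBS libraries. In long-term against PBS lungs 7 of 12 rose and 0 fell, and in short-term against PBS lungs 4 rose and 2 fell, and none was at 0 in all libraries. Monocyte markers, 9 genes, summed to 894 to 998 TPM in long-term, 973 to 1148 TPM in short-term and 946 to 1085 TPM in PBS libraries. Ace made up most of this sum in every library. It spanned 525.55 to 608.63 TPM in long-term, 694.6 to 926.77 TPM in short-term and 715.5 to 775.48 TPM in PBS libraries. Of the 9, 1 rose and 0 fell in long-term, and 1 rose and 1 fell in short-term, against PBS. Their median log2 difference from PBS was 0.40 in long-term and 0.01 in short-term lungs. After the correction 2 rose in long-term and 4 in short-term lungs, with 0 falling, beside 12.6% and 25.7% of all tested genes called upwards. The part of macrophages and monocytes in the level of Mgl2 was not tested. Mgl2 has a close paralogue, Clec10a, and reads may be split between them, so the values of both are uncertain. Clec10a, named after its values were seen, was at 4.18, 3.58 and 3.47 TPM in long-term, 4.64, 6.87 and 3.52 TPM in short-term and 2.37, 2.27 and 2.87 TPM in PBS lungs. Its short-term difference from PBS passed at 0.74 (adjusted p = 0.0115), and its long-term difference was 0.44 (adjusted p = 0.231).

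Cd209a (gene 170786, chr8:3743395-3748984) encodes a lectin of the DC-SIGN family that marks monocyte-derived and cDC2 cells. It was at 8.67, 8.28 and 9.58 TPM in long-term, 4.36, 7.01 and 4.25 TPM in short-term and 4.01, 6.97 and 5.11 TPM in PBS lungs. All long-term libraries were above all others, and the short-term and PBS ranges overlapped. The long-term mean was 1.65 times that of PBS (log2 fold change 0.65 ± 0.22, interval 0.17 to 1.13, adjusted p = 0.0885), and did not pass. It passed without short-term replicate 1 (adjusted p = 0.0306) or 2 (0.0275), with the 2 groups alone (0.0134), and was 0.46 after the correction (adjusted p = 0.0733). The short-term difference was -0.04 (adjusted p = 0.893). Long-term exceeded short-term lungs by 0.69 (adjusted p = 0.0237). This passed in 11 of 19 alternatives, but not without long-term replicate 1, 2 or 3 (0.0624, 0.0523 and 0.0748) or short-term replicate 3 (0.0817), and was 0.42 after the correction (adjusted p = 0.0600). The family member Cd209d, named after its values were seen, was at 3.51, 3.98 and 6.89 TPM in long-term, 3.67, 4.92 and 2.85 TPM in short-term and 1.39, 2.44 and 1.06 TPM in PBS lungs. It rose in both exposed groups, by 1.13 in long-term (adjusted p = 0.0195) and 0.88 in short-term lungs (adjusted p = 0.0182), though neither call held without PBS replicate 1 or 3, nor the long-term one without long-term replicate 3. The ratio of Mgl2 to Cd209a was 3.78, 4.69 and 4.02 in long-term, 5.36, 5.64 and 6.52 in short-term and 4.10, 2.90 and 3.15 in PBS lungs. The short-term ratios lay above all others, at the smallest p the design allows (0.1, exact permutation test, two-sided).

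Fscn1 (gene 14086, chr5:142960355-142973189) encodes fascin, which bundles actin in the dendrites of mature cells and is also expressed outside dendritic cells. It was at 36.03, 37.73 and 32.57 TPM in long-term, 83.61, 67.87 and 60.66 TPM in short-term and 32.90, 34.19 and 32.45 TPM in PBS lungs. All 3 short-term libraries were above all others, and the long-term and PBS ranges overlapped. The mean was 35.4 ± 2.63 TPM in long-term, 70.7 ± 11.7 TPM in short-term and 33.2 ± 0.903 TPM in PBS lungs (SD, n = 3). The short-term mean was 2.13 times that of PBS (log2 fold change 1.06 ± 0.13, interval 0.76 to 1.35, adjusted p = 0.00037), and 1.26 after the correction (adjusted p = 5.57e-05). All 19 alternatives passed, from 0.93 to 1.40. The long-term difference from PBS was 0.09 (interval -0.21 to 0.39, adjusted p = 0.819). Long-term and short-term lungs differed by -0.97 (adjusted p = 0.000637), and all 19 alternatives of that passed too. The transcript of 2157 bases lies at percentile 50.8 of length, where tested genes had a median short-term difference of -0.38.

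Ccr7 (gene 12775, chr11:99144199-99155077) encodes the receptor that guides mature dendritic cells, and also naive T cells, to CCL19 and CCL21 in lymph nodes. It was at 26.79, 22.47 and 16.40 TPM in long-term, 24.05, 21.29 and 17.05 TPM in short-term and 12.88, 13.51 and 21.46 TPM in PBS lungs. All 3 groups overlapped, with PBS replicate 3 at the level of the exposed lungs. The differences from PBS were 0.44 in long-term (interval -0.07 to 0.96, adjusted p = 0.313) and 0.39 in short-term lungs (interval -0.13 to 0.90, adjusted p = 0.180). The short-term one passed under median-ratio scaling (adjusted p = 0.0336) and quantile normalization (0.0285). Fscn1 over Ccr7 was 1.34, 1.68 and 1.99 in long-term, 3.48, 3.19 and 3.56 in short-term and 2.55, 2.53 and 1.51 in PBS lungs. The short-term ratios did not overlap the others, at the smallest two-sided exact permutation p of 0.1.

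Siglech (gene 233274, chr7:55768154-55779448) encodes a lectin on plasmacytoid dendritic cells. It was at 5.12, 4.0 and 5.10 TPM in long-term, 4.04, 4.54 and 3.45 TPM in short-term and 5.18, 5.19 and 4.44 TPM in PBS lungs. The ranges overlapped in every pair. The log2 differences from PBS were -0.05 in long-term (interval -0.40 to 0.29, adjusted p = 0.926) and -0.25 in short-term lungs (interval -0.59 to 0.10, adjusted p = 0.197). The second was 0.01 after the correction (adjusted p = 0.944).

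**Figure D2:**
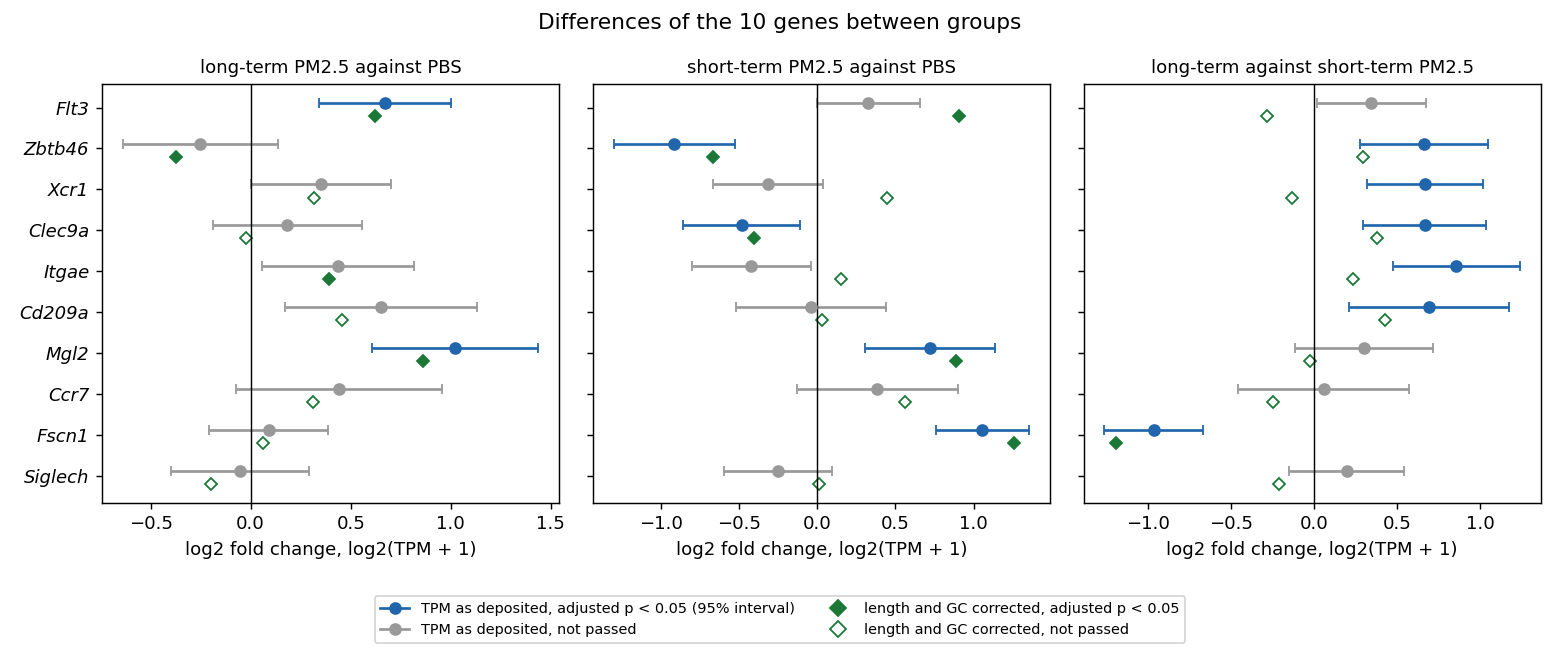
Log2 fold change of log2(TPM + 1) for the 10 genes in the 3 comparisons, with the 95% interval (circles) and the value after removal of the length and GC trend (diamonds); filled blue or green marks pass an adjusted p of 0.05. Mgl2 lies right of 0 against PBS in both exposed groups, and Fscn1 passes right of 0 in short-term against PBS and left of 0 in long-term against short-term lungs.

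**Figure D3:**
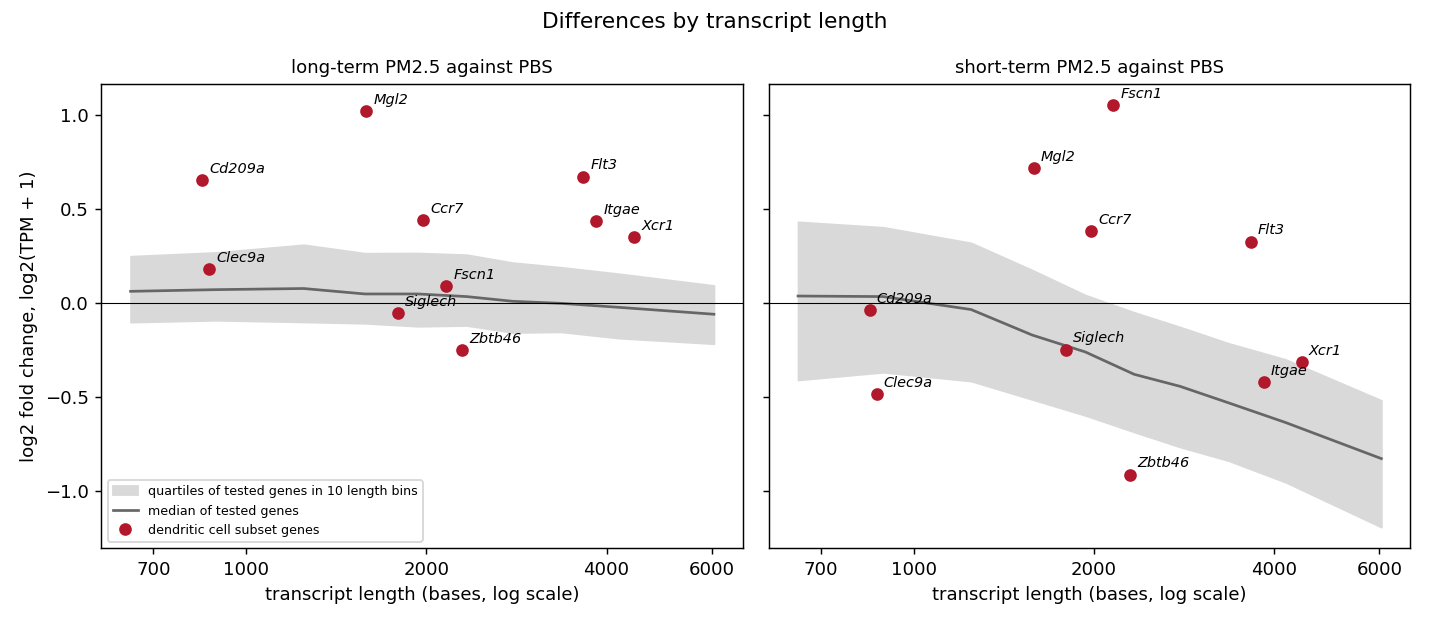
Log2 fold change against transcript length in bases for long-term and short-term PM2.5 against PBS, with the 10 genes as points and the median and quartiles of tested genes in 10 length bins. The short-term median falls from 0.04 in the shortest bin to -0.83 in the longest. Relative to the short-term median of its bin, Fscn1 lies at 1.44, Mgl2 at 0.89, Flt3 at 0.86, Ccr7 at 0.65, Clec9a at -0.52 and Zbtb46 at -0.53.

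The number of genes whose groups did not overlap was 5 higher and 1 lower of 10 in long-term against PBS, beside 43.2% of all tested genes (25.9% higher and 17.4% lower). It was 2 higher and 3 lower in short-term against PBS, beside 60.3% (14.5% higher and 45.8% lower). Between long-term and short-term lungs it was 6 higher and 1 lower, beside 60.1% (50.2% higher and 9.94% lower). Short-term replicate 1 was the lowest of the 9 libraries for 3 of the 10 genes (Zbtb46, Clec9a and Itgae) and the highest for 1 (Fscn1).

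Of 50 other genes of the dendritic cell subsets, 44 passed the filter on low values and were tested. In long-term against PBS lungs 8 rose, 0 fell and 36 did not pass, with a median log2 change of 0.25, beside 9.51% of all tested genes called upwards and 1.72% downwards. In short-term against PBS lungs 13 rose, 12 fell and 19 did not pass, with a median of -0.19, beside 11.7% upwards and 40.3% downwards. Between long-term and short-term lungs 20 were higher, 6 were lower and 18 did not pass, with a median of 0.41, beside 43.4% upwards and 7.08% downwards. After the correction the counts were 12 up and 4 down, 17 up and 10 down, and 12 up and 10 down, in the same order. Of all tested genes, 12.6% were then called upwards and 11.7% downwards, 25.7% and 27.8%, and 22.2% and 24.1%. The counts by subset and by marker list are to be read against the shares of all tested genes in the same comparison and setting.

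**Figure D4:**
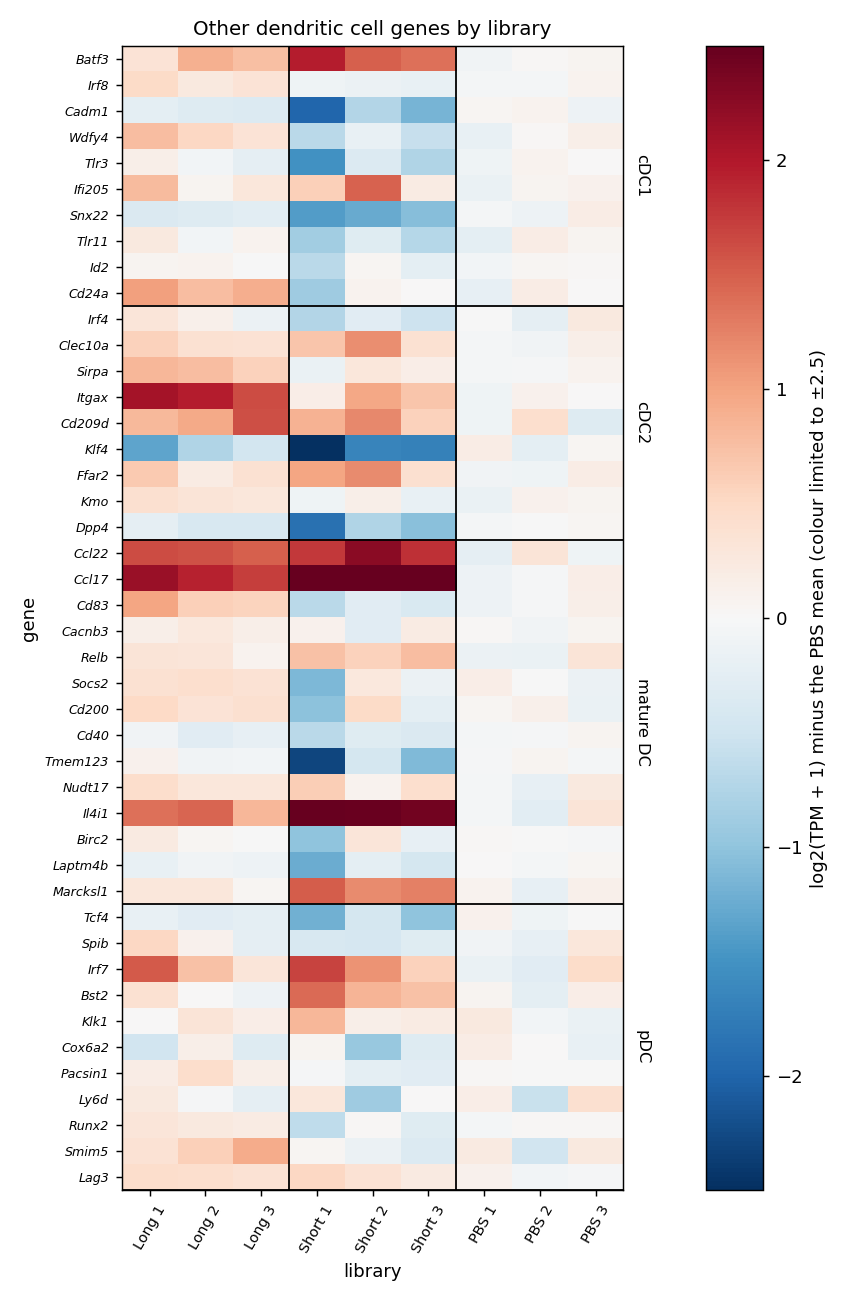
Log2(TPM + 1) minus the PBS mean for the 44 other tested dendritic cell genes (lines) in each library (columns), grouped by subset, with red above and blue below the PBS mean and colour limited to 2.5 log2 units. Ccl17, Ccl22 and Il4i1 are red in all 6 exposed libraries, and Marcksl1 and Batf3 are most intense in the short-term ones.

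Among the 14 other tested genes of mature dendritic cells, 4 rose in long-term and 5 rose with 4 falling in short-term lungs against PBS. Cd83, Cd40 and Tmem123, named after their values were seen, were below the PBS range in all short-term libraries. Cd83 was at 22.15, 16.72 and 16.25 TPM in long-term, 6.35, 8.64 and 7.97 in short-term and 9.8, 10.56 and 11.95 in PBS lungs. Cd40 was at 19.09, 16.7 and 17.55 TPM in long-term, 12.42, 16.46 and 15.8 TPM in short-term and 19.8, 20.11 and 21.44 TPM in PBS lungs. Its long-term libraries were thus below the PBS range as well. For Tmem123 the values were 128.49, 112.47 and 114.38 TPM in long-term, 23.64, 87.46 and 54.84 TPM in short-term and 116.5, 125.67 and 116.05 TPM in PBS lungs. Ccl17, a chemokine that draws CCR4-bearing T cells, was at 17.90, 15.10 and 12.97 TPM in long-term, 47.33, 57.91 and 32.18 TPM in short-term and 2.88, 3.12 and 3.73 TPM in PBS lungs. The groups did not overlap, and short-term lungs were highest. It rose by 1.94 in long-term (adjusted p = 0.000318) and 3.43 in short-term lungs (adjusted p = 7.49e-06), with a difference of -1.49 between them (adjusted p = 0.000732). Ccl22, its partner chemokine, was at 14.66, 14.23 and 13.17 TPM in long-term, 16.18, 23.03 and 16.84 TPM in short-term and 3.31, 5.33 and 3.71 TPM in PBS lungs. Neither exposed group overlapped PBS. It rose by 1.57 in long-term (adjusted p = 0.00054) and 1.95 in short-term lungs (adjusted p = 9.47e-05), and macrophages also express both chemokines.

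Il4i1, an enzyme that breaks down amino acids, was at 11.74, 12.47 and 7.71 TPM in long-term, 57.42, 26.04 and 24.97 TPM in short-term and 3.74, 3.06 and 5.13 TPM in PBS lungs. The groups did not overlap, and it rose by 2.81 in short-term lungs (adjusted p = 0.000218). The long-term rise of 1.22 (adjusted p = 0.0292) was lost without long-term replicate 1 (0.128) or 2 (0.119), PBS replicate 1 (0.107) or 2 (0.122), without a filter on low values (0.0501) and under median-ratio scaling (0.0659). Marcksl1, an actin-regulating protein with higher RNA in mature dendritic cells, rose by 1.32 in short-term lungs (adjusted p = 0.000149) and differed by 0.20 in long-term lungs (adjusted p = 0.480). It was at 67.72, 67.62 and 57.75 TPM in long-term, 161.6, 126.72 and 135.09 TPM in short-term and 59.4, 47.78 and 60.42 TPM in PBS lungs, so that only the short-term libraries stood apart from PBS.

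Among the 10 other tested cDC1 genes, 1 rose in long-term lungs, and 1 rose and 4 fell in short-term lungs, against PBS. Batf3, the transcription factor needed for cDC1 cells and also induced in T cells, was the 1 that rose after short-term exposure. It was at 4.66, 7.33 and 6.56 TPM in long-term, 16.51, 11.67 and 10.59 TPM in short-term and 3.21, 3.57 and 3.68 TPM in PBS lungs. No group overlapped another. It rose by 1.61 in short-term lungs (adjusted p = 0.000341), opposite in direction to Clec9a, and differed by 0.66 in long-term lungs (adjusted p = 0.0626), which passed after the correction (0.62, adjusted p = 0.0128) and without short-term replicate 1 (0.00805) or 2 (0.0415). Snx22, a sorting nexin listed among cDC1 markers, fell by 1.24 in short-term lungs (adjusted p = 0.000324) and differed by -0.31 in long-term lungs (adjusted p = 0.270), which passed after the correction (-0.39, adjusted p = 0.0173). It was at 8.48, 8.65 and 9.13 TPM in long-term, 3.61, 4.05 and 4.78 TPM in short-term and 10.73, 10.03 and 12.76 TPM in PBS lungs, with no overlap. Irf8, the lineage factor of cDC1 and plasmacytoid cells, was at 51.72, 43.99 and 47.15 TPM in long-term, 34.08, 33.17 and 32.16 TPM in short-term and 35.85, 35.62 and 39.51 TPM in PBS lungs. Its long-term difference from PBS was 0.35 (adjusted p = 0.0750), and passed after the correction (0.30, adjusted p = 0.0397) and without short-term replicate 1 (0.0179). Its short-term difference was -0.15 (adjusted p = 0.268). Long-term exceeded short-term lungs by 0.51 (adjusted p = 0.00574), which did not pass under median-ratio scaling (0.13, adjusted p = 0.476).

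Among the 9 other tested cDC2 genes, 3 rose and 0 fell in long-term and 4 rose with 3 falling in short-term lungs against PBS. Klf4 and Dpp4, named after their values were seen, were below the PBS range in all libraries of both exposed groups. Klf4 was at 117.21, 175.33 and 213.29 TPM in long-term, 33.96, 92.88 and 90.48 in short-term and 336.21, 247.76 and 306.59 in PBS lungs. For Dpp4 the values were 30.69, 26.95 and 27.07 TPM, 9.14, 20.9 and 16.98 TPM, and 34.82, 35.86 and 37.28 TPM, in that order. Itgax, the integrin CD11c of dendritic cells and alveolar macrophages, was at 94.63, 87.71 and 69.32 TPM in long-term, 24.36, 42.98 and 35.61 TPM in short-term and 19.91, 23.47 and 21.64 TPM in PBS lungs. No group overlapped another, and long-term libraries were far highest. It rose by 1.90 in long-term (adjusted p = 0.00024) and by 0.61 in short-term lungs (adjusted p = 0.0266), the short-term rise being lost in 5 of 19 alternatives, among them those without short-term replicate 2 (0.0577) or 3 (0.0770) and PBS replicate 1 (0.0869) or 3 (0.0662). Irf4, a factor of cDC2 cells, was at 3.68, 3.14 and 2.43 TPM in long-term, 1.28, 2.15 and 1.66 TPM in short-term and 2.76, 2.25 and 3.53 TPM in PBS lungs. Its short-term fall of 0.51 on the log2 scale (adjusted p = 0.0409) held in 6 of 18 alternatives, was lost without short-term replicate 1 (0.0899) or 3 (0.0895), PBS replicate 1 (0.0908) or 3 (0.150) or long-term replicate 2 (0.0615), and was a rise of 0.26 after the correction (adjusted p = 0.197). Its long-term difference from PBS was 0.09 (adjusted p = 0.891).

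Of the 11 other tested genes of plasmacytoid cells, 0 passed in long-term lungs, while 3 rose and 1 fell in short-term lungs, against PBS. The 3 that rose, Irf7, Bst2 and Lag3, named after their values were seen, are known outside this lineage: Irf7 and Bst2 as interferon-induced genes in many cells and Lag3 as an inhibitory receptor of T cells. Bst2 was at 222.21, 171.1 and 154.09 TPM in long-term, 452.5, 305.44 and 283.82 TPM in short-term and 178.21, 142.67 and 191.44 TPM in PBS lungs, with no overlap of short-term with the others, and rose by 1.00 in short-term lungs (adjusted p = 0.00294). The gene that fell was Tcf4, the transcription factor that plasmacytoid cells need and that many other cells express. It was at 21.50, 19.97 and 20.73 TPM in long-term, 10.16, 17.89 and 11.76 TPM in short-term and 26.54, 22.82 and 24.49 TPM in PBS lungs, with no overlap, and fell by 0.88 in short-term lungs on the log2 scale (adjusted p = 0.00382). Its long-term difference was -0.24 (adjusted p = 0.573), and passed after the correction (-0.38, adjusted p = 0.0274).

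Of 9 ligands and growth factors that act on dendritic cells, 0 passed in long-term lungs, and 4 rose and 3 fell in short-term lungs, against PBS. Flt3l, the ligand of the Flt3 receptor, was at 40.80, 38.30 and 44.45 TPM in long-term, 29.27, 26.19 and 29.10 TPM in short-term and 31.50, 38.89 and 35.55 TPM in PBS lungs. The short-term libraries were below the others, and the long-term and PBS ranges overlapped. Its differences from PBS were 0.22 (adjusted p = 0.367) in long-term and -0.31 (adjusted p = 0.0562) in short-term lungs. The second passed without short-term replicate 1 (adjusted p = 0.0317) and after the correction (-0.44, adjusted p = 0.0083). Over median-ratio scaling, quantile normalization and the correction it ranged from -0.44 to 0.03, with adjusted p from 0.0083 to 0.894. Csf2, which encodes GM-CSF, was at 5.78, 6.36 and 4.74 TPM in long-term, 13.86, 14.35 and 13.71 TPM in short-term and 3.33, 4.99 and 6.05 TPM in PBS lungs. It rose by 1.40 in short-term lungs (adjusted p = 0.000544) and differed by 0.22 in long-term lungs (adjusted p = 0.641). Xcl1, the ligand of Xcr1, was at 2.87, 1.32 and 2.12 TPM in long-term, 2.87, 2.10 and 2.82 TPM in short-term and 1.01, 1.30 and 1.34 TPM in PBS lungs, and rose by 0.69 in short-term lungs (adjusted p = 0.0130), a call lost without PBS replicate 1 (0.0532).

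The ligands of Ccr7 moved in opposite directions in short-term lungs. Ccl19 was at 1.25, 1.34 and 0.31 TPM in long-term, 9.78, 2.46 and 4.24 TPM in short-term and 0.52, 0 and 1.15 TPM in PBS lungs, where 1 library is listed at 0. Ccl19 rose by 1.97 in short-term lungs (adjusted p = 0.00361) and differed by 0.36 in long-term lungs (adjusted p = 0.737). Ccl21a, whose near-identical copies make its values uncertain, was at 228.48, 268.18 and 261.27 TPM in long-term, 262.7, 166.47 and 240.14 TPM in short-term and 346.55, 320.52 and 314.61 TPM in PBS lungs. It fell by 0.58 in short-term lungs on the log2 scale (adjusted p = 0.0133), a call lost under median-ratio scaling (-0.23, adjusted p = 0.460) and without PBS replicate 1 (0.0505). Its long-term difference was -0.37 (adjusted p = 0.194), and passed after the correction (-0.52, adjusted p = 0.0351) and without short-term replicate 2 (0.0353). Lymph node stroma and vessel genes, a list that also holds Ccl19 and Ccl21a, summed to 256 to 281 TPM in long-term, 223 to 304 TPM in short-term and 322 to 353 TPM in PBS libraries. Ccl21a made up most of this sum in every library. Of 5 tested, 0 passed in long-term lungs, and 3 rose and 1 fell in short-term lungs, against PBS. The gene that fell was Ccl21a, and those that rose were Ccl19, Madcam1 and Cxcl13, the last 2 named after their values were seen. Cxcl13 was at 23.07, 9.78 and 8.44 TPM in long-term, 27.34, 50.22 and 47.9 TPM in short-term and 3.4, 7.75 and 4.89 TPM in PBS lungs. B cell genes summed to 173 to 322 TPM in long-term, 183 to 278 TPM in short-term and 166 to 255 TPM in PBS libraries, with 1 of 8 rising in long-term and 1 rising and 2 falling in short-term lungs against PBS. The part of lymphoid tissue in these values was not tested.

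For a representative of each subset, the 3 genes closest in shape over the 9 libraries were found by the root mean square difference of log2(TPM + 1), centred and scaled to an SD of 1. Shape over these libraries rests on the same groups, depth and length composition. For Xcr1 these were Nek3 (0.274), Spata17 (0.279) and Plbd1 (0.312), beside a median of 0.970 over all tested genes. For Cd209a they were Kmo (0.295), Gapt (0.304) and Cxcr6 (0.331), beside a median of 1.04. For Ccr7 they were Egr1 and Cd69 (0.383 each) and Oas2 (0.388), beside 1.42. For Siglech they were Angel1 (0.418), Atp23 (0.424) and Klre1 (0.435), beside 0.988.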

How the data were processed

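Total RNA of 9 whole lung samples was selected with oligo(dT) beads, made into libraries with a DSN step and sequenced on DNBSEQ, per the labels' protocols. The authors deposited a table of TPM values, 1 column a library. HISAT2, Bowtie2, RSEM and DESeq2 are named, with no role or version, per the submitters' processing notes, which name the build GRCm38.p6 for 8 of 9 samples. The column sums of the deposited TPM differ by at most 1.09, so reads and counting errors cannot be recovered, and count models were not used. DSN lowers abundant transcripts, which can move the values of abundant genes.

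Genes were tested if 3 or more libraries held 1 TPM or more (13991 genes), and 4884 were left out. Log2(TPM + 1) was fitted with limma 3.58.1 in R 4.3.3 (eBayes with intensity trend) over 3 groups with 6 residual degrees of freedom, with two-sided p-values adjusted by Benjamini-Hochberg within each comparison over every tested gene and a threshold of 0.05. Ratios were compared with exact permutation tests in Python 3.11.15. The procedure was tested on simulated data. The length and GC correction subtracts natural splines (5 degrees of freedom each) from each library and leaves out 199 genes without a known length. Other alternatives were a pseudocount of 0.1, no filter, a mean of at least 5 TPM, median-ratio scaling, quantile normalization, a fit of only the compared groups, a replicate block, eBayes without the trend and leaving out each library in turn. The members and all lists were chosen with earlier results of these data known. All members are named, and of the other dendritic cell and ligand lists the 8 with the smallest p in any comparison and 10 regulators and ligands, passed or not. The lists are markers of macrophages, monocytes, endothelium, T cells, B cells, lymph node stroma and lung tissue. Coordinates are of GRCm38.p6 by gene ID, found for 18818 of 18875 genes.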

Additional observations from a re-analysis of the deposited data

Results flagged for a closer look

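The difference between the long-term and the short-term effect against the same PBS libraries, which equals the difference between long-term and short-term lungs, passed the test (limma, Benjamini-Hochberg adjustment) for 6 of the 10 genes, a count near the 50.5% of all tested genes called in that comparison. Fscn1 was lower in long-term lungs by a log2 difference of -0.97 (adjusted p = 0.000637), with all 3 long-term libraries below all 3 short-term libraries. Itgae was higher by 0.86 (adjusted p = 0.00379), Cd209a by 0.69 (adjusted p = 0.0237), Xcr1 by 0.67 (adjusted p = 0.00756), Clec9a by 0.67 (adjusted p = 0.0099) and Zbtb46 by 0.66 (adjusted p = 0.0118), each with all 3 long-term libraries above all 3 short-term libraries. Of these 6, Fscn1 passed after removal of the length and GC trend (-1.19, adjusted p = 0.00014), and the other 5 passed neither after it nor under quantile normalization.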

How the results depend on the processing

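Fscn1 in short-term against PBS and in long-term against short-term lungs, Mgl2 in both comparisons with PBS and Zbtb46 in short-term against PBS passed under every alternative run. Of the 10 genes 2 were called in long-term against PBS lungs, beside 11.2% of all tested genes. The count was 1 at a mean of at least 5 TPM (8.68% of all tested genes), where 5 of the 10 were tested and Flt3 was not. It was 1 under quantile normalization (18.5%), 4 after the length and GC correction (24.3%), 4 with the 2 groups alone (27.8%), and 1 to 4 with a library left out (4 without short-term replicate 1, at 22.6%, and 1 without a long-term replicate or PBS replicate 1 or 2, at 5.63% to 7.19%). In long-term against short-term lungs 6 were called, beside 50.5%, with 3 at a mean of at least 5 TPM, where 5 of the 10 were tested (49.2%), and 1 under quantile normalization (42.7%), the length and GC correction (46.3%), and the correction with the replicate block (42.4%). The 8 other dendritic cell genes called in long-term against PBS lungs became 16 after the correction, 20 with the 2 groups alone, 15 after the correction with the replicate block (20.2% of all tested genes) and 4 to 16 with a library left out (4 without PBS replicate 1, at 6.11%, and 16 without short-term replicate 1). Signs were followed for the 10 genes and for the other named genes run under every alternative. Among their called differences, the sign turned for Xcr1 between long-term and short-term lungs (-0.13). It also turned for Irf4 in short-term against PBS (0.26) and long-term against short-term lungs (-0.19). Each of these turned after the correction with and without the block. Signs also turned among differences not called, such as Flt3 between long-term and short-term lungs (-0.28) and Xcr1 (0.45) and Itgae (0.15) in short-term against PBS. The cause was not tested. Of all genes called, the share called lower moved from 77.5% to 52.9% under median-ratio scaling, 51.9% under quantile normalization and 52.0% after the correction in short-term against PBS, from 15.3% to 25.9%, 44.8% and 48.3% in long-term against PBS, and from 14.0% to 42.6%, 50.2% and 52.0% in long-term against short-term lungs.

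The replicate numbers share no stated mouse or batch. Deviations of same-numbered libraries correlated at -0.21, -0.29 and -0.27 between long-term and PBS lungs, at 0.02, 0.26 and -0.14 between short-term and PBS lungs and at -0.25, -0.28 and 0.08 between long-term and short-term lungs. From 3 samples a group such values cannot show whether same-numbered samples share a batch, and the main fit does not pair them. With the replicate block the call of Clec9a (log2 -0.48, adjusted p = 0.0518) and of Irf4 (log2 -0.51, adjusted p = 0.0780) in short-term against PBS did not pass, and no other named call was lost. Read depth is unknown, Xcr1 and Clec9a lie near 1 TPM in some libraries, and with 3 samples a group intervals are wide.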
